A study of Mus musculus with 12 samples.

Results

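Small-intestinal gene expression after 72 h of fasting was compared with that after 12 h of fasting in mice. The comparison rests on the 6 arrays labelled 12 h fasted and 72 h fasted, 3 of each, out of 12 arrays in the series, and on all 20280 probes that are neither controls nor retired spots. All mice were male FVB mice of 6 weeks that were not genetically modified. Fasting took place in metabolic cages, and infrared warming, which began at 24 h, reached the 72 h mice but not the 12 h mice. Each array carried Cy3-labelled RNA from the full thickness of the intestinal wall, pooled from 2 mice, together with a Cy5-labelled reference pooled from 6 fed mice. The 3 pools per time point hold different mice, and the remaining 6 arrays, from fed mice and from mice fasted for 24 h, served here only to estimate the spread and to place the changes in time. The value of a gene is its log ratio, the log2 of Cy3 over Cy5, so 0 means a signal equal to that of the fed reference. The fed pools themselves can lie away from 0, for example at a mean of 0.60 for Ikbkg and of -0.76 for Plk1. Changes are given as 72 h minus 12 h on the log2 scale, with the standard error, and a probe is called when limma's Benjamini-Hochberg adjusted p over all probes is below 0.05.

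In a fasting mammal, glycogen is used first, then fatty acids from adipose tissue become the main fuel, and muscle and other tissues release amino acids. Glucocorticoids rise during prolonged fasting and act through the glucocorticoid receptor, a transcription factor that switches on a well-known set of target genes, while the nuclear receptor PPARα, bound to its partner RXR, induces fatty-acid oxidation in liver and gut. The small intestine renews its epithelium within days, absorbs sugars, amino acids, calcium and phosphate through the brush border of its enterocytes, burns glutamine as a principal fuel, and houses a large population of antibody-secreting plasma cells in its lamina propria.

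Because the same reference RNA was on every array, the Cy5 channel should not differ between time points, and the changes of both channels are given for the named genes, in brackets as Cy3 and Cy5 in log2 units where not in the sentence. The scanner output of the 12 h arrays differs from that of the 72 h arrays in file format and signal range: the median local background in Cy5 was 210 to 296.5 intensity units on the 12 h arrays and 74 to 81 on the 72 h arrays. Format, scan and fasting time cannot be told apart. The 12 h arrays also resembled each other less. The log ratios of the 12 h arrays correlated over probes at r = 0.18 to 0.53 with each other, against 0.80 to 0.84 among the 72 h arrays, and the Cy5 channels at 0.79 to 0.92 against 0.985 to 0.992. The array of 12 h replicate 3 stood apart, since 13.1% of its probes had a Cy5 signal more than 1 log2 unit from the mean of the 72 h arrays, against 4.52% for 12 h replicate 1 and 1.92% for 12 h replicate 2. Among the probes called lower at 72 h this share was 33.4%. On 12 h replicate 1, 5.42% of spots carried an outlier flag and were left out, against 0.276% to 0.799% on the other 5 arrays. All 16 measured brush-border genes, among them the villus protein villin (Vil1), lactase (Lct) and the homeobox factor Cdx2, were well above background in Cy3 on all 6 arrays, as the tissue label requires.

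Of 20274 probes with a value in the comparison, 2180 were called in the log ratio, which is 10.8% of those tested, and 5540 had an unadjusted p under 0.05. There were 1183 probes higher (5.84%) and 997 lower (4.92%) at 72 h, so 54.3% of the calls were rises, against 65.3% with median centring of each array. In Cy3 alone 3693 probes were called (18.2%), and in Cy5 alone, where the RNA was the same, 1863 (9.19%). The log ratio and Cy3 were called in the same direction for 1254 probes (6.19%), of which 759 were higher and 495 lower, and 999 of these had a Cy5 change under 0.5. These 1254 probes are referred to as changed in both. Of the probes changed in both, 332 of the higher and 234 of the lower changed at least 2-fold in the log ratio. No such threshold was set on their Cy3 change. In 545 of the called probes, or 25% of them, the Cy5 change was larger in size than the Cy3 change. Without 12 h replicate 3, 1955 probes were called in the log ratio and 1170 in both, while without 72 h replicate 1 the counts fell to 615 and 387, and without 72 h replicate 3 to 923 and 536. Without 12 h replicate 1 the log-ratio count rose to 3288.

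**Figure D1:**
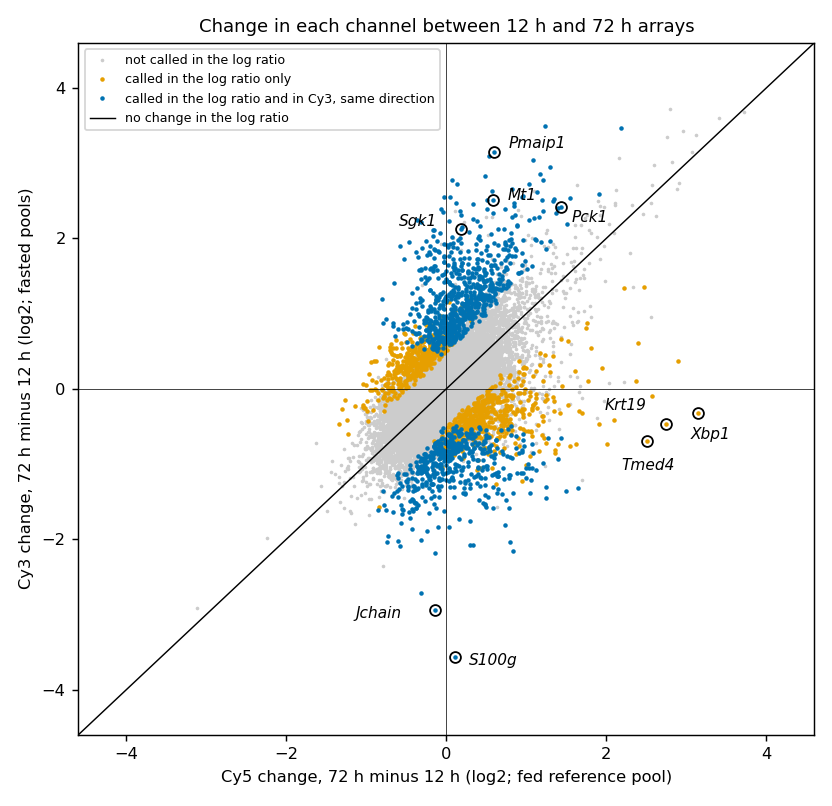
Change of every probe between the 12 h and 72 h arrays in Cy5, the fed reference (horizontal axis, log2), and in Cy3, the fasted pools (vertical axis, log2). Points on the diagonal do not change in the log ratio. The 1254 probes in blue were called in the log ratio and in Cy3, S100g and Jchain among them, whereas for Xbp1, Krt19 and Tmed4 the Cy5 change is the larger.

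Pim3, a serine/threonine kinase that promotes survival, had log ratios of 0.06, -0.39 and -0.80 in the 12 h pools and of 2.54, 2.43 and 2.03 in the 72 h pools. The groups did not overlap, and the rise was 2.71 ± 0.24 (SE, 3 pools against 3, limma adjusted p = 6.41e-05), a 6.53-fold change, with a Cy3 change of 2.78 and a Cy5 change of 0.07. The mean log ratio of Pim3 was -0.15 in fed and 0.25 in 24 h pools. Pmaip1 (Noxa), a pro-apoptotic member of the Bcl-2 family, measured 0.61, 0.23 and -0.02 at 12 h and 3.12, 2.80 and 2.57 at 72 h. Its rise was 2.56 ± 0.21 (limma adjusted p = 4.59e-05), with Cy3 higher by 3.15 and Cy5 by 0.59. Ddit4 (Redd1), a stress-induced inhibitor of the growth-promoting kinase complex mTORC1, measured 0.31, 0.03 and -0.69 at 12 h and 2.74, 2.69 and 1.98 at 72 h, a rise of 2.59 ± 0.25 (limma adjusted p = 0.000188) with a Cy3 change of 2.55 and a Cy5 change of -0.03. All 72 h pools of both genes lay above all 12 h pools.

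Ikbkg (Nemo), the regulatory subunit of the IκB kinase, measured 0.31, 0.72 and 0.51 at 12 h and 3.20, 3.34 and 2.75 at 72 h, a rise of 2.58 ± 0.51 (limma adjusted p = 0.00658, Cy3 2.72, Cy5 0.14). Its fed pools were spread widely around a mean of 0.60, which enters the standard error. Tpsg1, a tryptase of mast cells, rose by 2.27 ± 0.33 (limma adjusted p = 0.00127), with Cy3 higher by 3.50 and the reference signal in Cy5 by 1.23. Ctps2, which makes CTP for nucleic-acid and phospholipid synthesis, rose by 2.39 ± 0.57 on its brighter probe (limma adjusted p = 0.0189, Cy3 2.35, Cy5 -0.04) while its other probe was called lower by -0.64 without a call in Cy3, so the direction of this gene depends on the probe. The rise of Ctps2 was not called without 72 h replicate 1 (2.25, limma adjusted p = 0.0862) or 72 h replicate 3 (2.21, adjusted p = 0.0756).

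The remaining genes among the 12 largest rises were Edar, a receptor of the tumour necrosis factor family, Dusp1, a phosphatase that switches off MAP kinases, Zfp346, a zinc-finger protein that binds double-stranded RNA, Itgb7, the β7 integrin of gut-homing lymphocytes, Pcdh18, a protocadherin, and Uba3, a subunit of the enzyme that activates NEDD8. They changed by 2.26 to 2.61, with Cy3 changes of 1.73 to 2.39 and Cy5 changes of -0.58 to -0.06, and in each the 12 h pools lay between -1.41 and 1.15 and the 72 h pools between 1.79 and 3.22. Edar, for example, measured -0.86, 0.78 and 1.00 at 12 h and 3.22, 2.13 and 3.00 at 72 h, a rise of 2.48 ± 0.42 (limma adjusted p = 0.00312, Cy3 1.90, Cy5 -0.58). The other probe of Uba3 was not called (0.44, limma adjusted p = 0.13, Cy3 -0.15), whereas that of Pcdh18 was changed in both (1.04, limma adjusted p = 0.0177). Within a time point these 6 genes moved together. When the deviation of each array from its time-point mean was correlated with that of Edar over the 12 arrays, r was 0.987 for Dusp1, 0.985 for Zfp346, 0.977 for Itgb7, 0.967 for Pcdh18 and 0.957 for Uba3, with 12 h replicate 1 lowest and 12 h replicate 3 highest among the 12 h pools in each. Of 18109 probes with a value on all arrays, 28 besides Edar reached an r of 0.95, and 26 of these were changed in both and higher at 72 h. Others among the 28 were Ptges, which makes prostaglandin E2, and the developmental regulators Cbx2 and Gbx2, whereas Lipc at 0.944 and Rxra at 0.925 lay just outside. The values of an array share its labelling, hybridization and scan, and Edar was chosen as the starting gene after its values had been seen, so this likeness is a description.

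**Figure D2:**
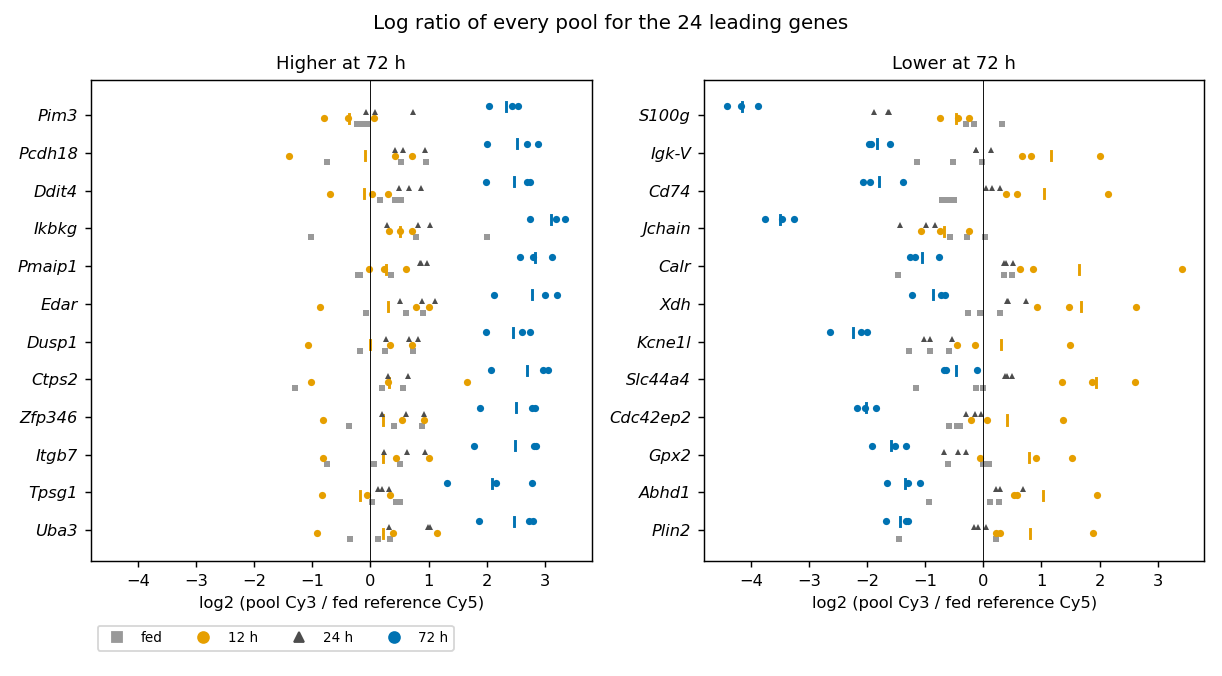
Log ratio of every pool (one point per array; vertical bars are the means of the 3 pools at 12 h and 72 h) for the 12 genes that rose most and the 12 that fell most among those changed in both. In every gene shown the 72 h pools lie on one side of the 12 h pools, as the choice of these genes required, and the 24 h pools of S100g, with a mean of -1.72, lie between the other fasting times.

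The largest fall was that of S100g (calbindin D9k), the vitamin D-dependent protein that carries calcium through the enterocyte. Its log ratios were -0.44, -0.74 and -0.25 at 12 h and -4.42, -4.16 and -3.87 at 72 h, a fall of -3.67 ± 0.20 (limma adjusted p = 4.8e-07, Cy3 -3.57, Cy5 0.10), or 12.8-fold. The Cy3 signal was 13.20, 12.58 and 12.78 on the 12 h arrays and 9.05, 9.20 and 9.60 on the 72 h arrays, while the Cy5 signal lay between 13.03 and 13.64 on all 6. The mean log ratio was -0.05 in fed and -1.72 in 24 h pools, so the level at 24 h lay between those at 12 h and 72 h. Slc34a2, the apical phosphate transporter of the small intestine, measured 1.97 and 1.87 in 12 h replicates 2 and 3 and -1.09, -0.03 and -0.30 at 72 h. The spot of 12 h replicate 1 carried an outlier flag and was left out of the fit, which gave a fall of -2.39 ± 0.27 (limma adjusted p = 0.000372, Cy3 -2.71, Cy5 -0.32), although a second, dimmer probe of the gene changed by -0.20 (limma adjusted p = 0.697). The fructose transporter Slc2a5 (Glut5) changed by -2.17 ± 0.58 in the log ratio (limma adjusted p = 0.0293) but was not called in Cy3, where it changed by -1.23 (limma adjusted p = 0.0572, with Cy5 at 0.94), and its call in the log ratio was lost without 12 h replicate 3 (-1.48, adjusted p = 0.0818) or any of the 72 h arrays. Of the 16 brush-border and transport genes measured, 3 were called lower and none higher in the log ratio, with 2 lower in both. The median change was -0.15, against -0.05 over all 8660 named genes, but 0.02 in Cy3 and 0.16 in Cy5, and 1 member was called higher in Cy3. Over named genes, each represented by its brightest probe, 14.4% were called in the log ratio, 6.36% higher and 8.08% lower, and 4.16% were higher and 4.56% lower in both.

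The other large falls included genes of antibody-producing and antigen-presenting cells. Also among the 12 largest were Xdh, Kcne1l, Slc44a4, Cdc42ep2 and Abhd1. These changed by -2.54 to -2.37, with Cy3 changes of -2.08 to -1.30 and Cy5 changes of 0.34 to 1.24. Calr, Gpx2 and Plin2 are given below. Jchain, which joins the units of secreted IgA and IgM, measured -0.24, -0.75 and -1.07 at 12 h and -3.76, -3.26 and -3.46 at 72 h, a fall of -2.81 ± 0.24 (limma adjusted p = 5.12e-05, Cy3 -2.95, Cy5 -0.14). Its mean was -0.27 in fed and -1.08 in 24 h pools. A probe named Igk-V, from the variable part of the immunoglobulin κ light chain, fell by -3.00 ± 0.32 (limma adjusted p = 0.000225, Cy3 -2.16, Cy5 0.84), but near-identical gene copies may share this probe. Cd74, the invariant chain that guides MHC class II molecules, measured 0.38, 0.57 and 2.15 at 12 h and -2.08, -1.38 and -1.95 at 72 h, and fell by -2.84 ± 0.34 (limma adjusted p = 0.000461), of which -2.04 was in Cy3 and 0.80 in Cy5. The MHC class II chain H2-Ab1 had log ratios of -0.17, -0.46 and 0.24 at 12 h and of -2.14, -1.82 and -2.08 at 72 h, and fell by -1.88 ± 0.20 (limma adjusted p = 0.000225, Cy3 -1.73, Cy5 0.16), and B2m, the light chain of MHC class I, fell by -1.46 ± 0.22 (limma adjusted p = 0.00165, Cy3 -1.23, Cy5 0.23). In all of these genes the 72 h pools lay below the 12 h pools.

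Of the 9 measured markers of B and plasma cells, 4 were called lower in the log ratio and 3 in both, with none higher. The median change was -0.59 in the log ratio, -0.16 in Cy3 and 0.33 in Cy5, and 1 member, Pou2f2, was called higher in Cy3 alone. Besides Jchain these were the heavy chain Ighm (-0.59 ± 0.18, limma adjusted p = 0.047, Cy3 -1.13, Cy5 -0.53), the B-cell surface protein Ms4a1 (-0.76 ± 0.19, limma adjusted p = 0.0195, Cy3 -0.82, Cy5 -0.06) and, in the log ratio only, the coactivator Pou2af1 (-0.90, limma adjusted p = 0.00862, Cy3 -0.51, Cy5 0.39). Ighm lost its call without any one of 5 arrays, for example without 72 h replicate 1 (-0.44, adjusted p = 0.215), and Ms4a1 lost it without 72 h replicate 1 (-0.84, adjusted p = 0.0529) or replicate 2 (-0.61, adjusted p = 0.0841). Pou2af1 lost its call without 72 h replicate 1 (-0.85, adjusted p = 0.052). The count in both was 1 without 72 h replicate 1 or replicate 2. The other 5, Cd79a, Pax5, Sdc1, Pou2f2 and Cd22, changed by -0.65 to 0.20 and were not called. Over the 8 genes with a value on every fed, 12 h and 72 h array the summed Cy3 signal was 4069 to 5498 in the 12 h pools and 1545 to 1770 in the 72 h pools. Without Jchain the other 7 summed to 1284 to 1361 and to 1178 to 1291, which overlap, so Jchain carried most of that difference, and 7 of the 9 genes were well above background on all 6 arrays. In bulk tissue, fewer cells of a type and less RNA per cell cannot be told apart. Of 7 T-cell markers only the kinase Lck was called (-0.92, limma adjusted p = 0.0387, Cy3 -0.87, Cy5 0.05), a call lost without 12 h replicate 3 (-0.50, adjusted p = 0.0531) or any 72 h array, and Cd3e, part of the T-cell receptor complex, changed by 0.11 (limma adjusted p = 0.70, Cy3 -0.01, Cy5 -0.13). Among 22 MHC and interferon genes, 7 were called lower and 1, the kinase Jak2, higher, with 5 and 1 in both, and the median was -0.43. The class II genes did not all move alike, since H2-Aa, H2-Eb1 and H2-DMa changed by 0.14, 0.24 and -0.07 and were not called (limma adjusted p = 0.671, 0.362 and 0.815), with Cy3 changes of -0.13, -0.06 and -0.11 and Cy5 changes of -0.26, -0.31 and -0.04. The count lower in both was 3 without 12 h replicate 1, 72 h replicate 1 or 72 h replicate 2, and Jak2 was no longer called in both without 12 h replicate 1 or any 72 h array. The interferon-inducible immunoproteasome subunits Psmb8 and Psmb10, listed with the proteasome below, changed in the same direction.

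The glucocorticoid-response list had the largest share of members called in one direction among the 31 lists. The lists and their members were chosen with earlier results of these data known, so this rank is a description. Of 10 measured members 6 were higher and none lower at 72 h, in the log ratio and in both, and the median change was 1.32. Sgk1, a kinase that raises the activity of epithelial sodium channels, measured -0.38, -0.53 and -0.36 at 12 h and 1.58, 1.61 and 1.36 at 72 h. Its rise was 1.94 ± 0.17 (limma adjusted p = 6.41e-05, Cy3 2.12, Cy5 0.18), with Cy3 signals of 11.28 to 11.64 at 12 h and 13.40 to 13.77 at 72 h and Cy5 signals of 11.69 to 12.18 on the 6 arrays. Sgk1 stood at -0.20 in fed and at 1.02 in 24 h pools. Fkbp5, a co-chaperone that binds the glucocorticoid receptor, measured 0.49, 1.04 and 0.93 at 12 h and 2.18, 2.55 and 2.33 at 72 h, a rise of 1.54 ± 0.27 (limma adjusted p = 0.00354, Cy3 1.21, Cy5 -0.33), and its mean of 1.75 at 24 h already lay well above that of 0.00 in fed pools. Klf9, a transcription factor, rose by 1.51 ± 0.18 (limma adjusted p = 0.000463, Cy3 1.31, Cy5 -0.21), Ddit4 and Dusp1, described above, are members as well, and the cell-cycle inhibitor Cdkn1a (p21) completes the 6. Cdkn1a rose by 1.13 ± 0.26 (limma adjusted p = 0.0134) while its Cy3 signal was higher by 2.29 and its Cy5 signal by 1.16, and it was not called without 72 h replicate 1 (0.99, adjusted p = 0.0795) or 72 h replicate 2 (0.98, adjusted p = 0.0574).

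The 4 members that were not called were Tsc22d3 (Gilz) at -0.29 (Cy3 0.19, Cy5 0.48), Foxo3 at -0.12 (Cy3 0.31, Cy5 0.43), Fkbp4 at -0.09 (Cy3 0.01, Cy5 0.10) and Foxo1 at 0.66 (Cy3 0.99, Cy5 0.33). Tsc22d3 measured 0.52, 0.49 and 1.42 at 12 h and 0.68, 0.66 and 0.22 at 72 h, so its pools overlapped, and its mean was 1.64 at 24 h. With single arrays left out 5 or 6 members of the list were higher in both, and its median Cy5 change was 0.14. Dusp1 is the 1 member among the 28 probes that followed Edar from pool to pool. Over the 9 members with a value on every fed, 12 h and 72 h array the summed Cy3 signal was 5283 to 6576 in the 12 h pools, 18564 to 24801 in the 72 h pools and 5042 to 7261 in fed pools. Without Sgk1 the other 8 summed to 2741 to 3478 at 12 h and to 7787 to 10847 at 72 h.

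The receptor binds a palindrome of 2 half-sites, and the window around the match in the promoter of Sgk1 is shown because Sgk1 is the only list member with the full element in the promoter table. In 32851 mouse promoters from RefSeq (GRCm38.p6, 250 bases before to 50 after the start), AGAACA followed after 3 bases by TGTTCT, on either strand, was found in 3 (0.00913%), and 1 of the 10 list members holds it, from 189 to 175 bases before the start of Sgk1. The half-site AGAACA, which is part of that palindrome, is common, with a match in 19.0% of all promoters, and in 2 of the 10 members, Sgk1 and Tsc22d3. The capitals mark the half-sites in chr10:21993671-21993745 (plus strand).
Sgk1: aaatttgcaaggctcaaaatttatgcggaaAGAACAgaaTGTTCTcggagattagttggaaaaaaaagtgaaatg
A match of letters in these windows is a description, and elements that lie farther from the start were not searched.

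Among genes of mitochondrial fuel oxidation all calls were falls. Of 16 measured genes of ketogenesis and mitochondrial fatty-acid oxidation, 8 were called lower and none higher in the log ratio, 7 were lower in both, and the median change was -0.99, with a median Cy3 change of -0.67 and a median Cy5 change of 0.14. Cpt2, which completes the carnitine-dependent entry of fatty acids into the matrix, measured 0.07 and -0.39 in 12 h replicates 2 and 3 and -1.88, -1.28 and -1.83 at 72 h, with the spot of 12 h replicate 1 left out as an outlier, and fell by -1.50 ± 0.23 (limma adjusted p = 0.00225, Cy3 -2.08, Cy5 -0.58). Hadhb, the β subunit of the trifunctional protein that carries out the last steps of each β-oxidation cycle, measured 0.32, 0.22 and 0.64 at 12 h and -0.90, -0.54 and -1.01 at 72 h, a fall of -1.21 ± 0.19 (limma adjusted p = 0.00193, Cy3 -1.09, Cy5 0.12). Its partner Hadha fell by -1.52 ± 0.27 (limma adjusted p = 0.00493, Cy3 -1.07, Cy5 0.44). For these genes the 72 h pools with a value lay below the 12 h pools with one.

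Etfb, part of the flavoprotein that passes electrons from β-oxidation to the respiratory chain, fell by -1.14 ± 0.25 (limma adjusted p = 0.0127, Cy3 -0.82, Cy5 0.32), with its call lost without 72 h replicate 1 (-1.15, adjusted p = 0.0552) or replicate 3 (-1.05, adjusted p = 0.0588). The very-long-chain dehydrogenase Acadvl was called in the log ratio only (-1.33, limma adjusted p = 0.0335, Cy3 -0.55, Cy5 0.77). It was not called without 12 h replicate 3 (-0.70, adjusted p = 0.0846) or any 72 h array (for example -1.22 without replicate 3). Without 72 h replicate 1 the change of Acadvl was again -1.33, so the loss there does not rest on the value of that array. With single arrays left out 4 to 7 members were lower in both, with 4 without 72 h replicate 1 or replicate 3.

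Among 19 peroxisomal genes and PPARα targets, 3 were higher and 5 lower, all of them in both, and the median was -0.36. Without 72 h replicate 1 or replicate 3, 1 was higher and 3 were lower in both, and 3 were lower without 12 h replicate 2 or 72 h replicate 2 as well. The PPARα partner Rxra measured -0.69, 0.58 and 1.66 at 12 h and 2.82, 1.98 and 2.62 at 72 h, a rise of 1.96 ± 0.50 (limma adjusted p = 0.0223, Cy3 2.15, Cy5 0.20) that was not called without 72 h replicate 1 (1.78, adjusted p = 0.106) or replicate 3 (1.88, adjusted p = 0.0774). Pdk4, which blocks the entry of pyruvate into the citric-acid cycle, measured 1.17, 1.34 and 0.98 at 12 h and 2.37, 2.18 and 1.91 at 72 h and rose by 0.99 ± 0.18 (limma adjusted p = 0.00404) from a 12 h level already above the mean of -0.19 in fed pools. Its Cy3 change was 1.78 and its Cy5 change 0.78. The fatty-acid transporter Cd36 was higher by 0.71 (limma adjusted p = 0.0421, Cy3 0.92, Cy5 0.22), which was lost without 12 h replicate 2 (0.40, adjusted p = 0.257) or any 72 h array. Plin2, the coat protein of lipid droplets, measured 0.28, 0.22 and 1.89 at 12 h and -1.34, -1.68 and -1.29 at 72 h, and fell by -2.23 ± 0.43 (limma adjusted p = 0.00657, Cy3 -1.48, Cy5 0.75). The acyl-CoA thioesterase Acot1 measured 1.50, 1.43 and 1.72 at 12 h and 0.20, 0.34 and 0.29 at 72 h, and fell by -1.27 ± 0.16 (limma adjusted p = 0.000463, Cy3 -0.94, Cy5 0.33) towards its fed mean of -0.03.

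Fabp4, the fatty-acid binding protein of adipocytes and endothelium, was lower by -1.07 (limma adjusted p = 0.0443, Cy3 -1.62, Cy5 -0.55), a call lost without any one of 5 arrays, for example without 12 h replicate 2 (-0.90, adjusted p = 0.119). Ppara itself had log ratios of 1.09, 0.20 and 0.80 at 12 h and 0.10, 0.03 and 0.07 at 72 h and was not called (-0.63, limma adjusted p = 0.119), although without 12 h replicate 2 it was (-0.88, adjusted p = 0.0379). The channels of Ppara went the same way, with Cy3 higher by 1.02 (limma adjusted p = 0.0433) and Cy5 by 1.65, and so the direction for Ppara in the Cy3 channel alone is opposite to that in the log ratio.

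All 25 measured genes of the citric-acid cycle and pyruvate entry had a negative change. Of these 6 were called lower in the log ratio and 4 in both, with none higher and a median of -0.74, while the median Cy5 change was 0.46, the largest of the lists with at least 9 measured members. The count in both was 2 without 72 h replicate 1. Pdhb, a subunit of pyruvate dehydrogenase, measured 0.46, 0.61 and 1.47 at 12 h and -0.66, -0.65 and -0.41 at 72 h, a fall of -1.42 ± 0.22 (limma adjusted p = 0.00208, Cy3 -0.79, Cy5 0.63). Mdh1, the cytosolic malate dehydrogenase, and Ogdh, of the oxoglutarate dehydrogenase complex, fell by -2.27 and -2.12 (limma adjusted p = 0.00579 and 0.00842), with Cy3 changes of -1.22 and -1.05 and Cy5 changes of 1.05 and 1.08. In 12 h replicate 3 their log ratios were 2.24 and 2.44, against -0.68 or less in every 72 h pool, and Mdh1 had no value in 12 h replicate 1. Ogdh was not called without 72 h replicate 1 (-1.96, adjusted p = 0.0516) or on its other probe (-1.68, limma adjusted p = 0.0985). Of the 51 respiratory-chain and ATP-synthase genes, 50 had a negative change, 19 were called lower and 13 of them in both, and the median was -0.70 in the log ratio, -0.75 in Cy3 and -0.16 in Cy5. Cycs (cytochrome c) measured -0.55, -1.05 and -0.86 at 12 h and -1.79, -1.73 and -1.86 at 72 h and fell by -0.97 ± 0.20 (limma adjusted p = 0.00919, Cy3 -1.27, Cy5 -0.30), and its level of -0.96 at 24 h was close to that at 12 h. Atp5b and Atp5j2, subunits of the ATP synthase, and Ndufb10, of complex I, changed by -1.81 (Cy3 -0.74, Cy5 1.06), -0.88 (Cy3 -1.29, Cy5 -0.41) and -0.98 (Cy3 -1.06, Cy5 -0.08), and each lost its call without 72 h replicate 1 (-1.68, -0.91 and -0.99, adjusted p = 0.0905, 0.0515 and 0.0769) and without 72 h replicate 3 (-1.91, -0.68 and -0.88, adjusted p = 0.0525, 0.063 and 0.0817). Atp5b also lost it without 12 h replicate 3 (-0.67, adjusted p = 0.0853) and 72 h replicate 2 (-1.83, adjusted p = 0.0514). The number of respiratory-chain genes lower in both was 10, 12 and 13 without 12 h replicates 1, 2 and 3. It was 10 without 72 h replicate 2 but only 1 without 72 h replicate 1 and 1 without 72 h replicate 3.

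Of 18 genes of glycolysis and gluconeogenesis, 6 were lower and 1 higher, all in both, with a median of -0.51. The number lower in both was 2 without 72 h replicate 1 or replicate 3 and 3 without 12 h replicate 2. The glycolytic enzyme Tpi1 measured -0.07, -0.21 and 1.01 at 12 h and -1.46, -0.86 and -1.34 at 72 h and fell by -1.46 ± 0.27 (limma adjusted p = 0.00538, Cy3 -1.59, Cy5 -0.13), and aldolase Aldoa fell by -1.53 ± 0.29 (limma adjusted p = 0.00579, Cy3 -1.16, Cy5 0.37). Lactate dehydrogenase Ldha fell by -0.98 ± 0.21 (limma adjusted p = 0.012, Cy3 -1.20, Cy5 -0.22), with its call lost without 72 h replicate 1 (-0.86, adjusted p = 0.0714) or replicate 3 (-0.83, adjusted p = 0.0607) and no call on its other probe (-2.91, limma adjusted p = 0.171). Gapdh was called on its brighter probe (-1.93, limma adjusted p = 0.0415), with Cy3 lower by -0.66 and Cy5 higher by 1.27, lost the call without any 72 h array (for example -1.93 without replicate 1, adjusted p = 0.128), and changed by -0.22 on its other probe. Pck1 (Pepck), which controls the entry into gluconeogenesis, was the member that rose. It measured 0.73, 1.61 and 1.62 at 12 h and 2.72, 2.24 and 1.94 at 72 h, against -0.17 in fed and 1.70 in 24 h pools. The rise was 0.98 ± 0.25 (limma adjusted p = 0.0226), made of 2.41 in Cy3 and 1.44 in Cy5, and was not called without 72 h replicate 1 (0.77, adjusted p = 0.126) or replicate 2 (1.01, adjusted p = 0.0548).

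**Figure D3:**
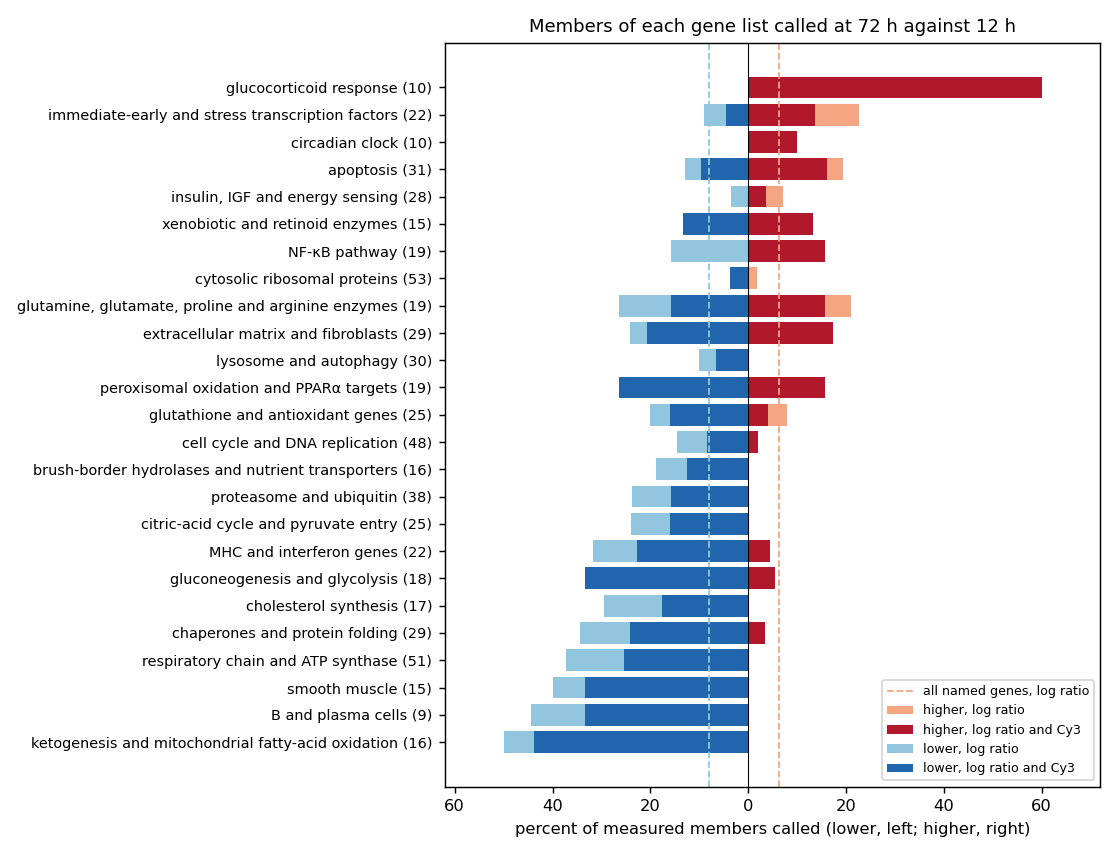
Percentage of the measured members of each gene list (number in brackets, lists of at least 9) that were called higher (right) or lower (left) at 72 h against 12 h. Pale bars show calls in the log ratio, dark bars those in both the log ratio and Cy3, and dashed lines the percentage over all named genes, 6.36% higher and 8.08% lower. The glucocorticoid list has 6 of 10 members higher, and the list of ketogenesis and fatty-acid oxidation 8 of 16 lower. The lists were chosen with earlier results of these data known.

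In amino-acid metabolism, 19 genes of glutamine, glutamate, proline and arginine conversion included 4 called higher and 5 lower, with 3 and 3 in both and a median of -0.03. The pools separated for the enzymes around glutamate. Glul (glutamine synthetase) measured 0.33, 0.39 and 0.15 at 12 h and 1.57, 1.74 and 1.15 at 72 h, a rise of 1.20 ± 0.19 (limma adjusted p = 0.00214, Cy3 0.91, Cy5 -0.28), and its second probe rose by 1.56 (limma adjusted p = 0.00399). Glud1, which interconverts glutamate and oxoglutarate, measured -0.66 and -1.21 in the 12 h pools with a value and 0.98, 0.76 and 1.23 at 72 h and rose by 1.92 ± 0.21 (limma adjusted p = 0.00036, Cy3 1.58, Cy5 -0.34). Odc1, the first enzyme of polyamine synthesis, rose by 1.68 ± 0.24 (limma adjusted p = 0.00124), with a Cy3 change of 0.92 and a Cy5 change of -0.76. In the other direction Asns (asparagine synthetase) measured 1.57, 1.04 and 1.86 at 12 h and -0.49, -0.26 and -0.47 at 72 h and fell by -1.89 ± 0.22 (limma adjusted p = 0.000367, Cy3 -1.31, Cy5 0.59), from a 12 h level above the fed mean of -0.17 to one below it. Oat, which converts ornithine, fell by -1.13 ± 0.24 (limma adjusted p = 0.0102, Cy3 -1.21, Cy5 -0.08) but was not called without 72 h replicate 1 (-0.98, adjusted p = 0.0564). Got2, the mitochondrial aspartate aminotransferase, was not called (-0.78 ± 0.35, limma adjusted p = 0.171, Cy3 -0.33, Cy5 0.45, and 0.10 on its other probe). Without 72 h replicate 1, 1 gene of the list was lower in both.

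Of 25 antioxidant and glutathione genes, 2 were higher and 5 lower, with 1 and 4 in both, and the median was -0.34. The number lower in both was 2 without 72 h replicate 1 or replicate 3, and 3 were higher without 12 h replicate 3. Mt1, a metallothionein that binds zinc and is induced by metals and glucocorticoids, measured -0.11 and 0.18 in 12 h replicates 2 and 3 and 1.87, 2.14 and 1.83 at 72 h. Its rise was 1.92 ± 0.32 (limma adjusted p = 0.00321, Cy3 2.50, Cy5 0.59), with the 24 h mean at 2.10. The spots of Mt1 were saturated in 2 of the 3 arrays at 72 h, which bounds the Cy3 signal there from below. Gpx2, the glutathione peroxidase of the gut epithelium, measured 0.91, -0.06 and 1.52 at 12 h and -1.91, -1.34 and -1.52 at 72 h, a fall of -2.38 ± 0.32 (limma adjusted p = 0.000862, Cy3 -2.08, Cy5 0.30), and the ubiquitous Gpx1 fell by -1.14 ± 0.21 (limma adjusted p = 0.00612, Cy3 -1.52, Cy5 -0.38). In cholesterol synthesis, 5 of 17 genes were lower and none higher, 3 of them in both, with a median of -0.30, and 1 in both without 12 h replicate 1, 72 h replicate 1 or 72 h replicate 3. Fdps (farnesyl diphosphate synthase) measured 0.85, 0.96 and 2.06 at 12 h and -0.93, -0.34 and -0.89 at 72 h and fell by -2.01 ± 0.28 (limma adjusted p = 0.00104, Cy3 -1.38, Cy5 0.63), and Fdft1 (squalene synthase) by -1.46 ± 0.34 (limma adjusted p = 0.0144, Cy3 -0.90, Cy5 0.56), the latter not called without 72 h replicate 1 (-1.32, adjusted p = 0.0793) or replicate 3 (-1.47, adjusted p = 0.0515). The xenobiotic and retinoid enzymes numbered 2 higher and 2 lower of 15, all in both, where 4.16% of all named genes were higher and 4.56% lower. The 2 rises were lost without 72 h replicate 1 or replicate 3. Among the falls Maoa (monoamine oxidase A) fell by -2.09 ± 0.36 (limma adjusted p = 0.004, Cy3 -1.40, Cy5 0.69).

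Genes of protein folding were among those lower at 72 h. Of 29 chaperone and folding genes, 10 were called lower and 1 higher, with 7 and 1 in both, and the median change was -0.49. Calr (calreticulin), a calcium-binding chaperone of the endoplasmic reticulum, measured 0.64, 0.86 and 3.41 at 12 h and -1.26, -0.76 and -1.17 at 72 h. Its fall was -2.70 ± 0.60 (limma adjusted p = 0.0118), with -1.45 in Cy3 and 1.25 in Cy5, and it was not called without 72 h replicate 1 (-2.60, adjusted p = 0.0591). Pdia4, a disulfide isomerase of the same compartment, measured 0.04, 0.24 and 0.08 at 12 h and between -1.32 and -0.97 in the 3 pools at 72 h and fell by -1.22 ± 0.17 (limma adjusted p = 0.00102, Cy3 -1.49, Cy5 -0.27). The cytosolic chaperone Hsp90ab1 fell on 2 of its 3 probes, by -1.43 and -2.38 (limma adjusted p = 0.0103 and 0.02), with Cy3 changes of -0.62 and -0.47, and changed by -0.35 on the remaining probe, which was not called. The call of the first was lost without 72 h replicate 1 (-1.34, adjusted p = 0.0585) or replicate 3 (-1.30, adjusted p = 0.0525), and that of the other was made in the log ratio only, with Cy5 higher by 1.91 against 0.80 for the first. The count in both fell from 7 to 2 without 72 h replicate 1 and to 3 without 72 h replicate 3. It was 4 without 12 h replicate 2, 5 without 72 h replicate 2 and 6 without 12 h replicate 1 or replicate 3.

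Many endoplasmic-reticulum chaperones carry the stress response element, CCAAT followed after 9 bases by CCACG, which is bound by NF-Y together with ATF6 or XBP1. It was found on either strand in 39 of 32851 RefSeq promoters (0.119%) and in 5 of the 24 measured chaperone genes that have a promoter in the table, of which Hsp90b1 has 2 matches. These windows are shown because the members that hold the element did not all change the same way. The capitals mark both ends of the element, and where it lies on the opposite strand it reads CGTGG and ATTGG. The windows are, in GRCm38.p6, Calr chr8:84847045-84847123, Hspa5 chr2:34771995-34772073, Hsp90b1 chr10:86705608-86705686 and chr10:86705503-86705581, Canx chr11:50325770-50325848 and Dnajc3 chr14:118937797-118937875, each in the direction of its gene, with the genes on the minus strand except for Hspa5 and Dnajc3.
Calr: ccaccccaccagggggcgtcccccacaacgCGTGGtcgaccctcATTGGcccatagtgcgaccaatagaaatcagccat
Hspa5: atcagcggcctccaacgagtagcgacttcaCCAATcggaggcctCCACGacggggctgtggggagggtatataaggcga
Hsp90b1, first match: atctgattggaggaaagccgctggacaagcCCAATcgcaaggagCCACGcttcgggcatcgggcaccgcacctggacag
Hsp90b1, second match: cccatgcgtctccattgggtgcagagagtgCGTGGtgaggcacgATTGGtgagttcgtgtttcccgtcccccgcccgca
Canx: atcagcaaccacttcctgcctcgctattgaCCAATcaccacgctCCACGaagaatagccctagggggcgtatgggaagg
Dnajc3: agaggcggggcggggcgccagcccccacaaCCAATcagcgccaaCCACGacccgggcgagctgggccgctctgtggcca
Of these genes Calr fell, as given above. Hspa5 (BiP) measured 0.18, 0.43 and 1.09 at 12 h and -0.56 and -0.79 in the 72 h pools with a value and was called in the log ratio only (-1.24, limma adjusted p = 0.0432, Cy3 -0.78, Cy5 0.46). Hsp90b1 (Grp94) had a value in 1 pool at 12 h, 0.96, and in 2 at 72 h, -0.13 and -0.36, because the other spots carried outlier flags. It was called lower (-1.20, Cy3 -1.30, Cy5 -0.10), a call lost without any 72 h array (for example -1.09 without replicate 3). Replicate 1 at 72 h held no value for this gene, and without that array the change was again -1.20, so that loss does not rest on its value. Hsp90b1 is among the 7 chaperone genes counted as lower in both and rests on 1 pool at 12 h, whose spread is taken from the other groups. Canx (calnexin) changed by -0.14 (limma adjusted p = 0.719, Cy3 0.13, Cy5 0.27), and Dnajc3, a co-chaperone, measured 0.28, 0.22 and 0.13 at 12 h and 1.50, 1.15 and 0.96 at 72 h, a rise of 0.99 ± 0.17 (limma adjusted p = 0.00488) made of 2.54 in Cy3 and 1.54 in Cy5.

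For Xbp1, the factor that binds this element, the comparison depends on 1 reference spot. Its only unflagged spot at 12 h was that of replicate 3, with a Cy3 signal of 10.16 and a Cy5 signal of 6.83, whereas at 72 h Cy3 was 9.56 to 10.05 and Cy5 9.94 to 10.00. The log ratio therefore gave -3.48 ± 0.66 (limma adjusted p = 0.00719), while Cy3 differed by -0.33 (limma adjusted p = 0.766) and Cy5 by 3.15. With outlier spots kept, the change was -1.59 (limma adjusted p = 0.138). Krt19, a keratin of simple epithelia, and Tmed4, a cargo protein of the early secretory pathway, had the same form. Krt19 had Cy5 signals of 11.60 in 12 h replicate 2 and 7.14 in 12 h replicate 3, against 12.07 to 12.15 at 72 h. Its log ratio changed by -3.21 (limma adjusted p = 0.0272) with a Cy3 change of -0.47 and a Cy5 change of 2.74, and without 12 h replicate 3 the change was -1.40 (adjusted p = 0.218). Tmed4 changed by -3.20 (limma adjusted p = 0.00122) with a Cy3 change of -0.70 and a Cy5 change of 2.50, again from 12 h replicate 3 alone, and its other probe by -1.52 (limma adjusted p = 0.0428). Tnxb (tenascin X), a matrix protein, changed by -2.96 (limma adjusted p = 0.00648) with -1.32 in Cy3 (limma adjusted p = 0.0175) and 1.64 in Cy5. Among rises the form was milder: the corepressor Tle1, the zinc-finger gene Zfp61, the sister-chromatid cohesion gene Cdca5 (sororin) and the exocyst subunit Exoc5 were called higher by 1.26 to 1.41, with Cy5 changes of -0.71 to -0.94 and Cy3 changes of 0.36 to 0.56 that were not called, and the other probe of Tle1 changed by -0.16 (limma adjusted p = 0.664). Zfp61 and Exoc5 lost their calls without 12 h replicate 3 (0.68 and 0.78, adjusted p = 0.131 and 0.0757) and without 72 h replicate 3 (1.30 and 1.17, adjusted p = 0.0579 and 0.0644), Zfp61 also without 72 h replicate 2 (1.14, adjusted p = 0.0655) and Exoc5 without 72 h replicate 1 (1.32, adjusted p = 0.0548).

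**Figure D4:**
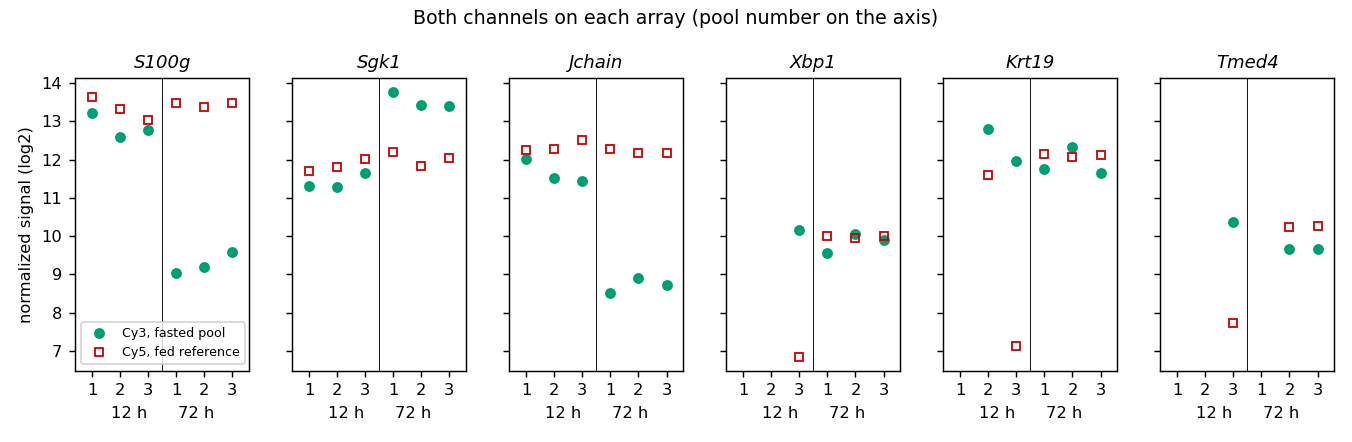
Normalized log2 signal of Cy3 (filled circles, fasted pool) and Cy5 (open squares, fed reference) on each 12 h and 72 h array, with the pool number on the horizontal axis and outlier-flagged spots left out. S100g, Sgk1 and Jchain change in Cy3 over a level Cy5, whereas Xbp1, Krt19 and Tmed4 have a low Cy5 signal on the array of 12 h replicate 3.

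Of 38 proteasome and ubiquitin genes, 9 were lower and none higher, with 6 in both and a median of -0.46. Psmb8 measured -0.17 and 1.47 in the 12 h pools with a value and -1.29, -1.02 and -1.40 at 72 h and fell by -1.89 ± 0.37 (limma adjusted p = 0.0075, Cy3 -1.48, Cy5 0.40), and the proteasome activator Psme2 fell by -1.29 ± 0.26 (limma adjusted p = 0.00792, Cy3 -2.03, Cy5 -0.74), with its call lost without 72 h replicate 1 (-1.19, adjusted p = 0.051). The change of Psmb10 was -2.85 (limma adjusted p = 0.0155), of which -1.35 was in Cy3 and 1.49 in Cy5, and -1.60 (adjusted p = 0.117) without 12 h replicate 3. It was not called either without 72 h replicate 1 (-2.76, adjusted p = 0.0678) or replicate 3 (-2.75, adjusted p = 0.0579). The number lower in both was 1 without 72 h replicate 1, 2 without 72 h replicate 3 and 3 without 12 h replicate 3. Among 30 lysosomal and autophagy genes 3 were lower and none higher, 2 of them in both, with a median of -0.08 (Cy3 0.03, Cy5 0.04). Among 53 cytosolic ribosomal protein genes 2 were lower in both and 1 higher in the log ratio only, with a median of -0.23. The shares over all named genes were 8.08% lower and 6.36% higher in the log ratio, and 4.56% and 4.16% in both. For both lists the count in both was 0 without 12 h replicate 3, 72 h replicate 1 or 72 h replicate 3.

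In the apoptosis list, 6 of 31 genes were higher and 4 lower, with 5 and 3 in both and a median of -0.10. Beside Pmaip1, the anti-apoptotic Mcl1 measured -0.67, -0.57 and -0.61 at 12 h and 0.68, 0.78 and 0.88 at 72 h, a rise of 1.40 ± 0.14 (limma adjusted p = 0.000225), to which Cy3 contributed 0.79 and Cy5 -0.61, while its second probe changed by -0.21 (limma adjusted p = 0.492). Bok, a pro-apoptotic member of the Bcl-2 family, measured 0.50, 0.23 and -0.29 at 12 h and 1.31, 1.67 and 1.15 at 72 h and rose by 1.23 ± 0.21 (limma adjusted p = 0.00314, Cy3 1.32, Cy5 0.08). Casp6, an executioner caspase, measured -0.63, -0.98 and -0.89 at 12 h and -2.23, -1.93 and -1.88 at 72 h and fell by -1.18 ± 0.19 (limma adjusted p = 0.00231, Cy3 -1.61, Cy5 -0.43), continuing from -0.18 in fed pools. Traf3, an adaptor of tumour necrosis factor receptors, rose by 1.55 ± 0.36 (limma adjusted p = 0.0151, Cy3 1.65, Cy5 0.10), which was not called without 72 h replicate 1 (1.34, adjusted p = 0.0866) or replicate 3 (1.47, adjusted p = 0.0635). Genes that promote and genes that oppose cell death both stood on the rising side. The number higher in both was 2 without 72 h replicate 3, and the number lower in both was 1 without 72 h replicate 1 or replicate 3.

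Of 19 NF-κB genes 3 were higher in both and 3 lower in the log ratio only, with a median of 0.17 (Cy3 0.00, Cy5 -0.08). Over all named genes 4.16% were higher in both and 8.08% lower in the log ratio. In this list 2 were higher in both without 12 h replicate 3, 72 h replicate 1 or 72 h replicate 3. Nfkbia (IκBα), the inhibitor that NF-κB itself induces, measured 0.86, 0.30 and 0.30 at 12 h and 2.80 and 1.93 in 72 h replicates 2 and 3 and rose by 1.88 ± 0.25 (limma adjusted p = 0.00102, Cy3 1.92, Cy5 0.04). The subunit Rela was higher by 0.71 (limma adjusted p = 0.023, Cy3 1.17, Cy5 0.46), with its call lost without 72 h replicate 1 (0.59, adjusted p = 0.124) or replicate 3 (0.68, adjusted p = 0.0801) and changes of -0.05 and -0.53 on its other probes, and Nfkb2 was lower by -1.04 (limma adjusted p = 0.0015) with a Cy3 change of -0.24 and a Cy5 change of 0.81. Among 22 immediate-early and stress transcription factors 5 were higher and 2 lower, with 3 and 1 in both, and 5 were higher in both without 12 h replicate 3. Klf6 measured -0.16, -0.17 and 0.00 at 12 h and 1.50, 1.30 and 1.52 at 72 h and rose by 1.55 ± 0.15 (limma adjusted p = 0.000275, Cy3 1.97, Cy5 0.42). Of its other 3 probes, 1 rose by 1.03 (limma adjusted p = 0.0155) and the others, at 0.51 and -0.02, were not called. Egr1 rose by 0.94 ± 0.20 (limma adjusted p = 0.0102, Cy3 1.13, Cy5 0.19). Creb3 rose by 1.99 ± 0.46 (limma adjusted p = 0.0156, Cy3 1.84, Cy5 -0.14) but not without 72 h replicate 1 (1.80, adjusted p = 0.0827) or replicate 3 (1.93, adjusted p = 0.0609).

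Of 48 cell-cycle genes 7 were lower and 1 higher, with 4 and 1 in both and a median of -0.16. Over all named genes 8.08% were lower and 6.36% higher, with 4.56% and 4.16% in both. Ccnd1 (cyclin D1), which drives entry into the cycle, measured -0.40, -0.34 and -0.35 at 12 h and -1.36, -1.12 and -1.18 at 72 h and fell by -0.86 ± 0.20 (limma adjusted p = 0.0149, Cy3 -0.90, Cy5 -0.04), not called without 72 h replicate 1 (-0.79, adjusted p = 0.0796) or replicate 3 (-0.88, adjusted p = 0.0504), nor on its other probe (-0.48, limma adjusted p = 0.188). The mitotic kinase Plk1 fell by -1.18 ± 0.22 (limma adjusted p = 0.00497, Cy3 -1.10, Cy5 0.08), while its other probe changed by -0.06. Cdk4, the partner of cyclin D1, fell on 1 probe (-0.68, Cy3 -0.79, Cy5 -0.11, limma adjusted p = 0.0108, and 0.0597 without 72 h replicate 1) and rose on the other (0.72, limma adjusted p = 0.0252), so no direction is given for it. Ccng2 was lower by -0.67 in the log ratio (limma adjusted p = 0.0124), but not in Cy3 (-0.60, limma adjusted p = 0.0504) or without 72 h replicate 2 (-0.60, adjusted p = 0.0521). The number of cell-cycle genes lower in both was 1 without 72 h replicate 1 and 2 without 72 h replicate 2. In the lists of the insulin and energy-sensing pathway (28 genes) and of the circadian clock (10 genes) 1 gene each was changed in both, Igfbp5 at 0.68 (Cy3 0.66, Cy5 -0.02) and Cry2 at 0.65 (Cy3 1.18, Cy5 0.53). Both calls were lost without 72 h replicate 1 (0.56 and 0.59, adjusted p = 0.148 and 0.144) or 72 h replicate 3 (0.65 and 0.58, adjusted p = 0.10 and 0.12), and also without 12 h replicate 2 (0.60 and 0.66, adjusted p = 0.13 and 0.0601). That of Cry2 was lost without 12 h replicate 3 as well (0.59, adjusted p = 0.0666). Akt1 was not called on either probe (1.37 ± 0.43, limma adjusted p = 0.053, Cy3 2.30, Cy5 0.93, and 0.61, limma adjusted p = 0.308), but the first was higher without 12 h replicate 3 (1.63, adjusted p = 0.0335).

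**Figure D5:**
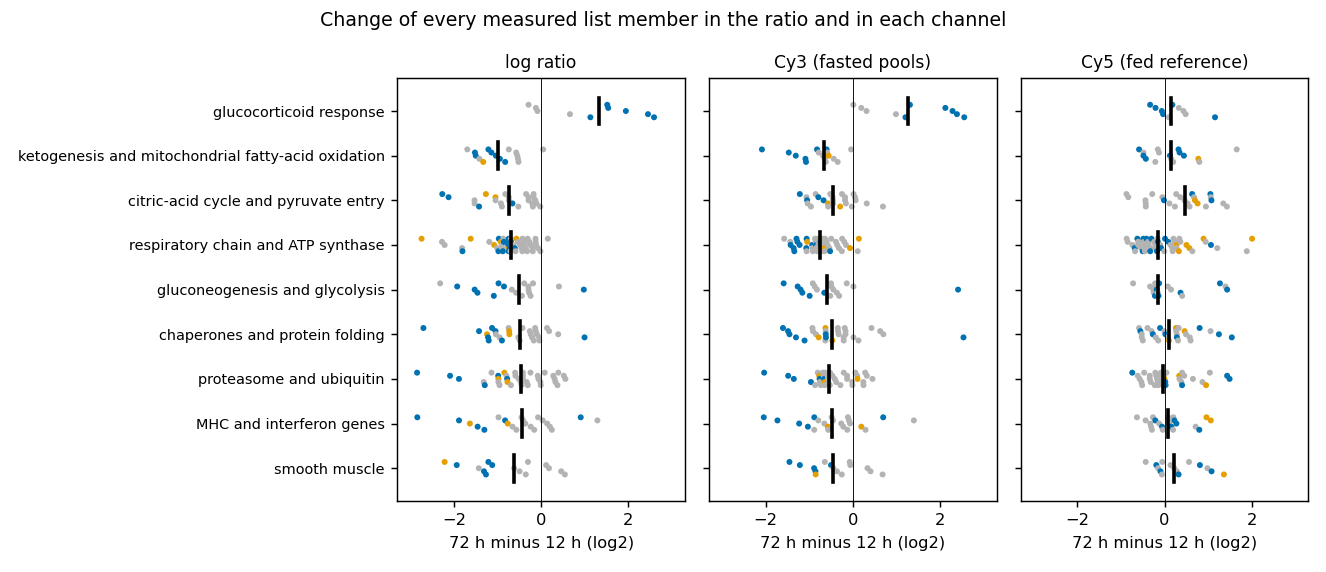
Change from 12 h to 72 h (log2) of every measured member of 9 gene lists in the log ratio, in Cy3 and in Cy5, each point a gene and each black bar the list's median. Blue points were changed in both, orange points were called in the log ratio only, and grey points were not called. The glucocorticoid list has its median at 1.32 in the log ratio and 0.14 in Cy5, and the citric-acid cycle list at -0.74 and 0.46.

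The wall of the intestine contributes muscle and connective tissue to these pools. Of 15 smooth-muscle genes 6 were lower and none higher, with 5 in both and a median of -0.62, beside a median Cy5 change of 0.22. Actg2, the γ actin of enteric muscle, measured 0.88, 0.74 and 2.76 at 12 h and -0.52, -0.22 and -0.69 at 72 h and fell by -1.94 ± 0.39 (limma adjusted p = 0.00734), with -0.86 in Cy3 and 1.08 in Cy5. The myosin light chain Myl9 measured 0.38, 0.35 and 0.36 at 12 h and -1.05, -0.61 and -1.05 at 72 h and fell by -1.27 ± 0.26 (limma adjusted p = 0.0097, Cy3 -1.45, Cy5 -0.19), a call lost without 72 h replicate 1 (-1.20, adjusted p = 0.0552). Des (desmin) and Myh11, the myosin heavy chain of smooth muscle, changed by -0.35 (Cy3 -0.07, Cy5 0.28) and 0.54 (Cy3 0.68, Cy5 0.14) and were not called, and the summed Cy3 signal of the 10 members with a value on every fed, 12 h and 72 h array, 7462 to 7811 at 12 h and 7023 to 8067 at 72 h, overlapped between the groups. That overlap rests on Myh11. Leaving it out, the remaining 9 members gave sums between 5351 and 5547 for the 12 h arrays. For the 72 h arrays the sums of these 9 lay lower, between 3829 and 4267. The count in both was 1 without 72 h replicate 1, 2 without 72 h replicate 3 and 4 without 12 h replicate 3. It was 3 without 12 h replicate 1, 12 h replicate 2 or 72 h replicate 2.

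Among 29 matrix and fibroblast genes 5 were higher and 7 lower, with 5 and 6 in both. Timp2, an inhibitor of matrix metalloproteinases, measured 0.74, 0.76 and 0.38 at 12 h and 2.38, 2.52 and 2.03 at 72 h and rose by 1.69 ± 0.31 (limma adjusted p = 0.00489) on its brightest probe, with Cy3 higher by 2.72 and Cy5 by 1.03, whereas its other probes changed by 0.01 and -0.01. Col1a2 (collagen I) measured -0.25, 0.45 and 1.11 at 12 h and -1.36, -0.86 and -0.81 at 72 h and fell by -1.45 ± 0.26 (limma adjusted p = 0.0048, Cy3 -1.14, Cy5 0.31), against 0.01 on its other probe. Without 72 h replicate 1, 1 gene was higher and 1 lower in both, and without 72 h replicate 3, 2 were higher and 2 lower.

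Of the secretory lineages, 5 goblet and Paneth cell genes were measured, and all 5 had a negative change, with a median of -1.42 in the log ratio, -0.70 in Cy3 and 0.33 in Cy5. Agr2, which folds mucins in goblet cells, was the 1 that was called. It measured -0.40, -0.44 and 0.49 at 12 h and -1.87, -1.36 and -1.71 at 72 h, a fall of -1.53 ± 0.24 (limma adjusted p = 0.00196, Cy3 -1.44, Cy5 0.09). Among 6 enteroendocrine genes Chga was called higher in the log ratio only (0.77, limma adjusted p = 0.0484, Cy3 0.58, Cy5 -0.19), a call lost without 12 h replicate 3 (0.49, adjusted p = 0.128) or any 72 h array. Of tissues that a dissection can include, exocrine pancreas was represented by 1 measured gene, Cpa1 (-1.43, limma adjusted p = 0.21, Cy3 -0.53, Cy5 0.91), adipose tissue by 2, of which Fabp4 was lower, and blood by 6, none of them called. The Cy3 signal of the pancreatic gene ranged from 7750 to 13207 in the 12 h pools and from 5707 to 13831 in the 72 h pools. The summed signal of the 2 adipose genes ranged from 1502 to 1703 at 12 h, from 577 to 617 at 72 h and from 551 to 840 in fed pools. Fabp4 carried most of that difference, since the other gene ranged from 112 to 136 at 12 h and from 100 to 125 at 72 h, which overlap. The part of these tissues in the other results was not tested.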

How the data were processed

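RNA of small intestine was measured on 12 Agilent 22K Mouse Development 2-colour arrays, 3 per time point, with no dye swap. Per the labels and the methods, the authors deposited Feature Extraction 6.1.1 output with median foreground and background intensity per spot and channel, neither corrected nor normalized. The deposited log ratios (log10 of Cy5 over Cy3) were treated as a score, because the decimal point of some cells had moved; the authors' deposited value table holds them on a log10 scale with the opposite sign. The labels of fed replicate 3 name its reference in 2 ways, and a common reference was assumed. The authors' Split-Factor analysis of variance was not rerun, and limma took its place.

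The intensities were background corrected with normexp (offset 50). Of 21446 spots per array, 1075 controls, 91 retired spots and outlier-flagged spots were then left out, saturated spots were kept, the 24 channels were quantile normalized together, and replicate spots were averaged, giving 20280 probes. Log2(Cy3/Cy5), Cy3 and Cy5 were each modelled by limma 3.58.1 (R 4.3.3) over all 12 arrays, with time point as the factor and 1 shared estimate of the spread. The contrast was 72 h minus 12 h, with Benjamini-Hochberg adjustment over all probes. A lone unflagged spot of a time point is taken to vary like the others. The fits were also run on simulated data, for probes with a value on every array, with independent noise of equal spread at all time points. Such data cannot test the unequal spread of the real arrays or the lone spots. P-values rest on the spread between arrays within time points, pooled over all 12 arrays. In Cy3 that spread mixes differences between pools of different mice with those of labelling, hybridization and scan. In the log ratio it also holds the scatter of the reference signal. In Cy5, where the RNA was taken to be the same, it holds no difference between mice. How precise the estimates are depends on the number of arrays and on their signal over background. A total of 18126 probes stood well above background on every array of 12 h or of 72 h.

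Probes were named through gene numbers, accessions or symbols matched to RefSeq's GRCm38.p6 table: 11422 of 20280 matched, 11237 with a symbol other than a clone name, for 8662 genes. A gene in a list is represented by its brightest probe. The 31 lists, their members and the genes named were chosen with earlier results of these data known. Named were the 12 largest rises and 12 largest falls called in the log ratio and in Cy3 with the pools apart, the 4 largest rises and 4 largest falls with a Cy5 change above the Cy3 change, up to 4 called members of each list, and the genes the study discussed; genes named beyond these complete a count and were chosen after their values were seen. Promoters and motifs were searched on both strands. Tables were joined with pandas 2.3.3 under Python 3.11.15 and plots drawn with matplotlib 3.10.9. Some items are not reported here.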

Additional observations from a re-analysis of the deposited data

How the results depend on the processing

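Each of the 126 named probes that were called kept its direction in every alternative that gave it a value, and 41 kept their call in all of them. Among 2853 pairs of a named probe and an alternative, 2272 stayed on the same side of the threshold, 555 lost a call and 25 gained one. Ppara was the 1 named probe whose direction turned, from -0.63 in the log ratio to 1.02 in the Cy3 channel alone. The 2180 probes called in the log ratio became 662 with median centring, 607 with only the 6 arrays in the fit, 776 with those arrays also normalized on their own, 1145 with no moderation of the variance and 3693 in Cy3 alone, and ranged from 615 to 3288 when single arrays were left out. The share of rises among the calls was 65.3% with median centring and 53.3% to 59.2% without single arrays. The 175 list members called became 63 with median centring, 112 with the deposited log ratios or the authors' value table, 66 with only the 6 arrays, 83 with those normalized on their own and 80 with no moderation, and ranged from 65 to 207 without single arrays. For the 1254 probes changed in both, whose alternatives were chosen after seeing the data, the count was 438 with only the 6 arrays and 387 to 1363 without single arrays. The 3693 calls in Cy3 became 2083 to 3510 without single arrays. The 1863 calls in Cy5 became 104 with only the 6 arrays, 497 with no background correction and 295 to 5146 without single arrays. Without an array, the remaining 2 pools are taken to vary like the other groups.

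The replicate numbers of 12 h and 72 h arrays did not pair them, since deviations of same-numbered arrays correlated at -0.11, 0.03 and 0.04. With the replicate block 1660 probes were called in the log ratio, 3649 in Cy3, 1192 in Cy5 and 1056 in both. The slide or scan as a block was not run, as no date or slide was at hand, and neither was the study's own analysis of variance. The number of arrays and the signal over background limit the precision: 43 probes were not well above background on any 12 h array and 19 on any 72 h array, and scanner format and fasting time cannot be told apart.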
